A study of Mus musculus with 12 samples.

Results

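Tumor cells can carry surface proteins that hold immune cells back, and the 8 genes described here encode ligands of that kind: Cd276, Cd274, Vsir, Cd47, Pvr, Nectin2, Lgals9 and Ceacam1. They were found by symbol among the 26301 genes with a count row, and all 8 had one. The set was selected on measured values: it was chosen by the level of Cd276, which was higher in TKO tumors of these same data, so the values of the members in TKO tumors against control livers are given as a description with no test, and so is Cd276 in TKO tumors against DKO tumors.

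Polyadenylated RNA of mouse liver was sequenced as 40-base reads in 12 libraries, 4 in each of 3 groups. The control group was non-tumor liver of adult wild-type mice, age-matched to the others by the design text. The DKO group was liver tumor of adult Alb-Cre mice with E2f7 and E2f8 knocked out, and the TKO group was liver tumor of adult Alb-Cre mice with E2f7, E2f8 and Rb1 knocked out. By the study's methods the mice were on an FVB background, were followed to the end of life, and gave tissue that was snap-frozen. Cre under the albumin promoter acts in hepatocytes, so endothelial, stellate and immune cells of the same tissue keep the intact alleles. The methods give 4 livers for each group. Each label also carries its own code of a letter and a number, whose meaning is not stated. Some letters occur in more than 1 group, and control 2 and control 3 share the letter e, which no model here took into account. The counts of control 2 and control 3 were the most alike of the control pairs. Their chi-square per tested gene was 18.5, against 60.7 to 70.8 for the other control pairs. Whether control 2 and control 3 are as independent as the other controls cannot be told from the labels. The adjusted p values below weigh a difference between group means of 4 samples against the spread within groups, which the main model estimates over all 12 libraries. No library is a non-tumor liver with the deletions, so tumor state and genotype cannot be told apart in a comparison with control. The comparison of DKO with control bears on tumors that lack the atypical E2F repressors, and that of TKO with DKO on tumors that also lack Rb1. The study reports shorter lives and a shorter tumor latency in TKO than in DKO mice. The Rb1 deletion therefore cannot be told apart from age at collection or tumor stage in TKO against DKO.

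Total counts were 12845303, 9165812, 16190797 and 13864168 in control 1 to 4, 16424973, 13156779, 15065683 and 15450721 in DKO 1 to 4, and 16313303, 15325121, 12424532 and 10455159 in TKO 1 to 4. The shallowest library, control 2, held 4 counts of Cd274 and 50 counts of Cd276, and counting error is largest there. Levels are given as counts-per-million values (CPM), taken over the normalized library size. Fold changes are on the log2 scale, and the adjusted p values come from edgeR's quasi-likelihood test with the Benjamini-Hochberg method over 13882 tested genes, with 0.05 as the threshold. All 8 members passed the filter on low counts.

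The deleted genes were read first as a check of the labels. Rb1 stood at 10.7, 6.52, 8.27 and 7.69 CPM in control 1 to 4, at 11.3, 8.38, 7.99 and 8.37 CPM in DKO 1 to 4, and at 4.22, 5.47, 4.91 and 3.21 CPM in TKO 1 to 4. Every TKO library lay below every control and DKO library, with 43 to 77 counts of Rb1 left in each. The log2 difference of Rb1 between TKO and DKO was -1.01 (95% interval -1.48 to -0.55) with an adjusted p of 0.281 by edgeR's quasi-likelihood test with Benjamini-Hochberg adjustment. Over 21 alternatives the adjusted p of Rb1 ran from 0.00731 with DESeq2, the only value under 0.05, to 0.571 with the covariate from sex-linked genes. E2f7 had 4 to 24 counts per library and means of 0.812, 1.15 and 0.803 CPM in control, DKO and TKO. E2f8 stood at 4.52, 8.97, 5.96 and 5.49 CPM in control 1 to 4, at 7.59, 45.6, 11.4 and 17.3 CPM in DKO 1 to 4, and at 26.0, 13.8, 52.2 and 12.3 CPM in TKO 1 to 4. DKO 2 and TKO 3 were the highest for E2f8, and only DKO 1 among the tumors lay within the control range. Which exons these counts came from could not be seen in counts per gene. Hepatocyte markers were abundant in every library, albumin taking 6.57% to 10.1% of counts in control, 11.9% to 22.7% in DKO and 4.82% to 18.9% in TKO.

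Immune checkpoints are receptors on T cells, natural killer cells and macrophages that dampen the response of the cell when a ligand on a neighbor binds them. PD-L1, the product of Cd274, binds PD-1 on T cells, while CD47 binds SIRPα on macrophages and keeps them from engulfing the cell. In the liver such ligands sit on hepatocytes, sinusoidal endothelium, Kupffer cells and other immune cells, so a bulk library reports the sum over all of them.

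Cd276 encodes B7-H3, a B7 family protein whose receptor is not settled, and it is found on many solid tumors. Cd276 (Entrez 102657) lies on the minus strand of chromosome 9 from 58372107 to 58402939 in mm9. Its level was 5.64, 6.15, 5.96 and 7.83 CPM in control 1 to 4, 8.74, 12.7, 10.1 and 15.8 CPM in DKO 1 to 4, and 27.1, 17.1, 13.3 and 30.7 CPM in TKO 1 to 4. Every tumor library of both genotypes lay above every control library, TKO 1 and TKO 4 were the highest, and TKO 3 lay below DKO 4, so the tumor groups overlapped. The counts behind these levels were 50 to 107 in control, 114 to 268 in DKO and 174 to 450 in TKO. The means were 6.40 ± 0.982 CPM in control, 11.8 ± 3.12 CPM in DKO and 22.1 ± 8.19 CPM in TKO (SD, n = 4 each), and the spread between samples was widest in TKO. In bulk tissue a change in the share of cells that express a gene and a change in RNA per cell cannot be told apart.

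In DKO tumors against control livers Cd276 was 1.85-fold higher, a log2 difference of 0.88 (95% interval 0.29 to 1.48). The adjusted p was 0.0860 by edgeR's quasi-likelihood test with Benjamini-Hochberg adjustment, above the threshold, and the difference is therefore not called. Across 21 alternative ways of processing the adjusted p of Cd276 ran from 0.0399 with DESeq2 to 0.202 without control 3, and 2 of the 21 were under 0.05, DESeq2 and edgeR on the 8 control and DKO libraries alone. The group means compared here hold no TKO library, but the control libraries are those of the contrast that chose the members, and the TKO libraries enter the estimate of spread in the model. The size of the difference in Cd276 ran from 0.71 to 1.00 over the same settings.

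In TKO tumors against control livers, the contrast that chose the set, Cd276 was 3.45-fold higher with a log2 difference of 1.79. Against DKO tumors the TKO mean of Cd276 was 1.87-fold higher with a log2 difference of 0.90. Both values follow from the choice of the set and carry no test.

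**Figure D1:**
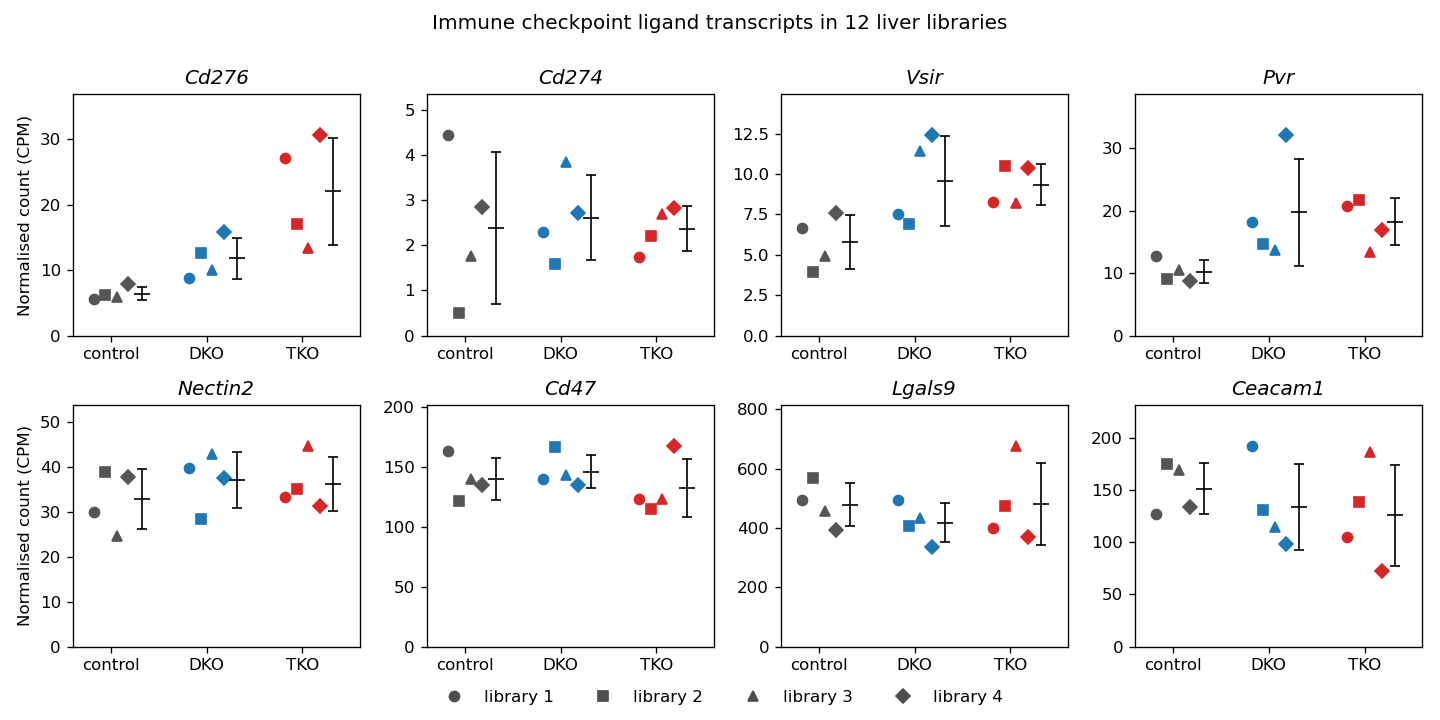
Level of each of the 8 genes in CPM (vertical axis, starting at 0) in the 4 control, 4 DKO and 4 TKO libraries; each point is a library, with its number given by the shape, and the horizontal mark with its error bar is the group mean and SD. The 8 tumor libraries of Cd276 lie between 8.74 and 30.7 CPM, above the 4 control libraries at 5.64 to 7.83 CPM, while the groups of Cd274, Cd47, Nectin2, Lgals9 and Ceacam1 overlap.

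Vsir and Cd274 are the remaining B7-like members. Vsir encodes VISTA, which restrains T cells and is expressed mainly on myeloid cells. Its level was 6.67, 3.93, 4.95 and 7.61 CPM in control 1 to 4, 7.51, 6.88, 11.4 and 12.4 CPM in DKO 1 to 4, and 8.26, 10.5, 8.21 and 10.4 CPM in TKO 1 to 4. All TKO libraries of Vsir lay above all control libraries, while DKO 1 and DKO 2 lay within the control range and DKO 3 and DKO 4 were the highest of all 12. The log2 difference of Vsir between DKO and control was 0.72 (95% interval 0.18 to 1.26), with an adjusted p of 0.111 by edgeR's quasi-likelihood test with Benjamini-Hochberg adjustment. Vsir passed the threshold under none of the 21 settings, its adjusted p running from 0.0562 to 0.260.

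Cd274 had few counts, 4 to 65 per library. Its level was 4.45, 0.492, 1.76 and 2.86 CPM in control 1 to 4, 2.30, 1.58, 3.84 and 2.71 CPM in DKO 1 to 4, and 1.75, 2.20, 2.68 and 2.83 CPM in TKO 1 to 4. Both the highest and the lowest library of Cd274 were controls, and the tumor groups lay within the control range. The log2 difference of Cd274 between DKO and control was 0.11 with a 95% interval of -0.93 to 1.15 (adjusted p = 0.913 by edgeR's quasi-likelihood test, Benjamini-Hochberg). The interval is wide, and the control libraries alone ran from 4 to 60 counts of Cd274. The sign of that difference turned when single libraries were left out, the value running from -0.20 to 0.58. It was highest without control 1, and it was negative without control 2, without control 3 (-0.0185) and without DKO 3 (-0.14).

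Pvr and Nectin2 encode CD155 and CD112, nectin-like adhesion proteins that engage the inhibitory receptor TIGIT and the activating receptor DNAM-1 on T and natural killer cells. Pvr stood at 12.7, 8.97, 10.4 and 8.79 CPM in control 1 to 4, at 18.2, 14.7, 13.7 and 32.1 CPM in DKO 1 to 4, and at 20.7, 21.7, 13.4 and 16.9 CPM in TKO 1 to 4. All 8 tumor libraries of Pvr lay above all 4 control libraries, and DKO 4 was the highest. The group means of Pvr were 10.2 ± 1.80, 19.7 ± 8.52 and 18.2 ± 3.78 CPM (SD, n = 4 each). Between DKO and control Pvr was 1.92-fold higher, a log2 difference of 0.94 (95% interval 0.36 to 1.52), with an adjusted p of 0.0731 by edgeR's quasi-likelihood test with Benjamini-Hochberg adjustment. Its adjusted p ran from 0.0227 with DESeq2 to 0.186 without control 2, and 2 of 21 settings, DESeq2 and limma's voom, were under 0.05. Without DKO 4 the log2 difference of Pvr was 0.60, the lowest of all settings.

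Nectin2 stood at 30.0, 38.8, 24.6 and 37.6 CPM in control 1 to 4, at 39.6, 28.4, 42.8 and 37.4 CPM in DKO 1 to 4, and at 33.3, 35.1, 44.7 and 31.3 CPM in TKO 1 to 4. The 3 groups of Nectin2 overlapped. Its log2 difference between DKO and control was 0.18 with a 95% interval of -0.21 to 0.57 (adjusted p = 0.576 by edgeR's quasi-likelihood test, Benjamini-Hochberg).

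Cd47 encodes the ligand of SIRPα that marks a cell as self to macrophages. Its level was 163, 121, 139.9 and 135 CPM in control 1 to 4, 139.6, 166, 143 and 135 CPM in DKO 1 to 4, and 123, 115, 123 and 168 CPM in TKO 1 to 4. The groups of Cd47 overlapped, TKO 4 being the highest and TKO 2 the lowest library. The log2 difference of Cd47 between DKO and control was 0.06 with a 95% interval of -0.27 to 0.39 (adjusted p = 0.838 by edgeR's quasi-likelihood test, Benjamini-Hochberg).

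Lgals9 encodes galectin-9, a secreted lectin that binds TIM-3 on T cells. Its level was 495, 569, 457 and 395 CPM in control 1 to 4, 494, 408, 434 and 335 CPM in DKO 1 to 4, and 401, 476, 678 and 368 CPM in TKO 1 to 4. TKO 3 was the highest library for Lgals9 and DKO 4 the lowest, and the groups overlapped. Its log2 difference between DKO and control was -0.20 with a 95% interval of -0.68 to 0.28 (adjusted p = 0.620 by edgeR's quasi-likelihood test, Benjamini-Hochberg).

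Ceacam1 encodes an adhesion protein of hepatocytes, bile canaliculi and leukocytes that binds itself on the next cell and has been described as a ligand of TIM-3. Its level was 127, 175, 169.6 and 134 CPM in control 1 to 4, 193, 131, 114 and 97.9 CPM in DKO 1 to 4, and 105, 139, 186 and 72.4 CPM in TKO 1 to 4. The groups of Ceacam1 overlapped, and TKO 4, with the highest Cd276, had the lowest Ceacam1. The log2 difference of Ceacam1 between DKO and control was -0.18 with a 95% interval of -0.79 to 0.43 (adjusted p = 0.734 by edgeR's quasi-likelihood test, Benjamini-Hochberg). Of the words of 40 bases in the longest Ceacam1 transcript, 54.6% also occur in other genes, almost all of them in Ceacam2, so counts of Ceacam1 and Ceacam2 depend on how reads with more than one place were handled. Ceacam2 averaged 39.9, 37.1 and 31.9 CPM in control, DKO and TKO, and its libraries overlapped in the same way.

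Taken as a set in DKO against control, 0 of the 8 members passed the adjusted threshold in edgeR, where 2.42% of all tested genes did. At an unadjusted p under 0.05 edgeR counted 3 of the 8, all higher (Cd276, Pvr and Vsir), where 12.9% of all tested genes were higher at that level. DESeq2 counted 2, Cd276 and Pvr, where it called 5.7% of its tested genes higher. The libraries of DKO and control did not overlap for 2 members, Cd276 and Pvr, both higher in DKO, and the same held for 8.87% of all tested genes. The median log2 difference of the 8 members was 0.14 against 0.02 for all tested genes. A p above the threshold does not show that a gene did not differ. The intervals of Cd276, Pvr and Vsir each lay above 0. These intervals are not adjusted for the number of tested genes, so they restate the unadjusted p and add no support. The control libraries are those of the contrast that chose the set by Cd276, so nothing is read from the place of Cd276 in these counts or from its interval.

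In TKO against control the log2 values were 1.79 for Cd276, 0.83 for Pvr, 0.68 for Vsir, 0.14 for Nectin2, 0.01 for Lgals9, -0.04 for Cd274, -0.08 for Cd47 and -0.27 for Ceacam1. For Cd276, Pvr and Vsir, 3 of the 8, every TKO library lay above every control library, as for 4.38% of all tested genes. These values share their control libraries with the DKO comparison and the contrast that chose the set, so nothing is read from that count.

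In TKO against DKO, edgeR called 0 of the 7 members other than Cd276 and 0% of all 13882 tested genes. At an unadjusted p under 0.05 edgeR counted 0 of these 7 members and 1250 genes in all, 9% of those tested, while DESeq2 called 0 of the 7 and 56 genes, 0.398% of the genes it tested. The libraries of TKO and DKO overlapped for all 7, as they did for all but 4.87% of tested genes. The log2 differences were -0.11 for Pvr (95% interval -0.68 to 0.45), -0.04 for Vsir (-0.57 to 0.49) and -0.04 for Nectin2 (-0.43 to 0.35). They were -0.14 for Cd47 (-0.47 to 0.19), 0.20 for Lgals9 (-0.28 to 0.68), -0.09 for Ceacam1 (-0.70 to 0.52) and -0.15 for Cd274 (-1.18 to 0.88). With single libraries left out the sign of these differences turned for Pvr, Vsir, Nectin2, Lgals9, Ceacam1 and Cd274, and that of Cd47 did not turn. The adjusted p values of these 7 in edgeR's quasi-likelihood test with Benjamini-Hochberg adjustment lay between 0.798 for Cd47 and 0.972 for Vsir. All 7 intervals held 0, and the one of Cd47 was the narrowest. The tests share the TKO libraries with the contrast that chose the set, and whether the difference of Cd276 exceeded that of any other member was not tested.

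Levels of different genes can be compared only per length of RNA. In CPM per kilobase of exon, averaged over the 12 libraries, Lgals9 was the most abundant member at 215, followed by Ceacam1 at 36.7, Cd47 at 26.4 and Nectin2 at 10.3. Cd276 came next at 4.07, then Pvr at 2.96, Vsir at 1.64 and Cd274 at 0.678. Lgals9 stood above every other member in all 12 libraries. Ceacam1 exceeded Cd47 in 11 of 12 libraries, TKO 4 being the exception, and Nectin2 and Cd276 overlapped in range, from 7.15 to 13.0 against 1.71 to 9.32 on this scale. Cd276 was above Pvr in 2 of 4 control and 2 of 4 DKO libraries, and in all 4 TKO libraries (4.05 to 9.32 against 2.48 to 4.01), the group whose Cd276 level chose the set. With the longest transcript in place of all exons Pvr stood at 5.52 and above Cd276, at 4.08. By group the level of Cd276 was 1.94 in control, 3.58 in DKO and 6.70 in TKO on this scale, and that of Pvr 1.89, 3.64 and 3.36.

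**Figure D2:**
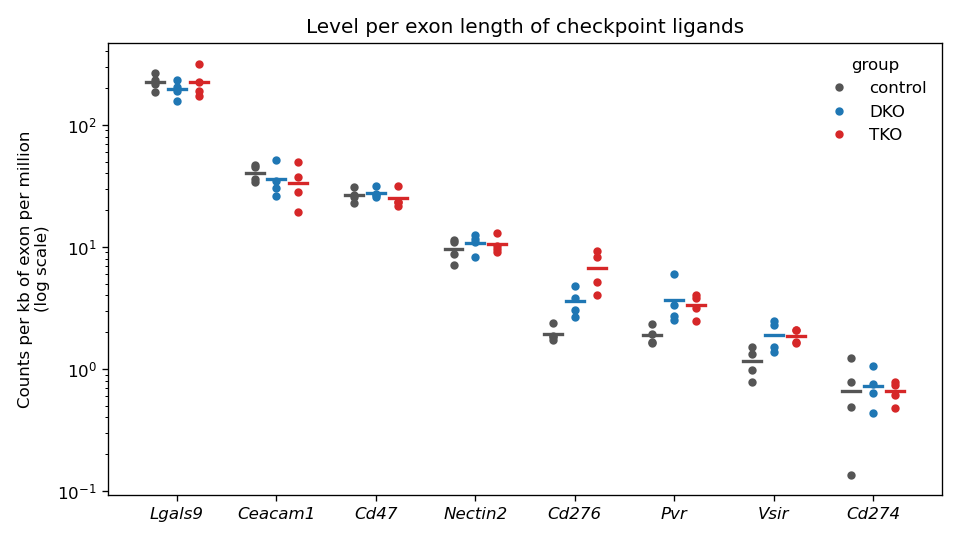
Level of each of the 8 genes in CPM per kilobase of exon on a log axis, with a point for each of the 12 libraries and a line at each group mean. Lgals9 lies highest, with a mean of 215, and Cd274 lowest, with a mean of 0.678, while Cd276 and Pvr overlap.

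Of the 8 members 3 are on the minus strand of chromosome 7, where Nectin2 and Pvr lie close together. In mm9 these are Nectin2 (20301993 to 20334922), Pvr (20488927 to 20506509) and Ceacam1 (26246721 to 26262644). The others are Cd274 on chromosome 19 (29441945 to 29462585), Cd47 on chromosome 16 (49855731 to 49915123), Lgals9 on chromosome 11 (78776476 to 78798448) and Vsir on chromosome 10 (59809599 to 59835432). Of the 3297 exon bases of Cd276, 111 overlap Gm10657 on the opposite strand, and of the 3440 exon bases of Nectin2, 135 overlap Gm20512 on the opposite strand. The strand setting of the counting is not given in the sources used here, so reads from these stretches are of uncertain origin. In Cd47, 1815 of 5277 exon bases overlap another annotated entry of the same name.

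The genes whose log2 CPM followed Cd276 most closely over the 12 libraries were Tfdp1, Gm19276, Mboat7, Tmem106c and Sptb. Pearson's r with Cd276 was 0.904 for Tfdp1, 0.899 for Gm19276, 0.897 for Mboat7, 0.883 for Tmem106c and 0.883 for Sptb. Spearman's rho was 0.916, 0.874, 0.881, 0.909 and 0.853 in that order. Without TKO 4 and TKO 1, the libraries farthest from the median of Cd276, r was 0.791, 0.790, 0.902, 0.816 and 0.844. Within the 8 tumor libraries alone r was 0.861, 0.836, 0.783, 0.714 and 0.777. Tfdp1, which encodes a dimerization partner of E2F proteins, averaged 9.84, 11.5 and 16.5 CPM in control, DKO and TKO. Sptb, which encodes a spectrin of the membrane skeleton, averaged 1.46, 3.89 and 10.9 CPM, and Mboat7, an acyltransferase of phosphatidylinositol, 29.8, 38.5 and 42.1 CPM. Tmem106c averaged 19.9, 24.3 and 27.8 CPM, while Gm19276 had only 107 counts in all libraries together. These genes were picked as the highest of all tested genes, the points share libraries and groups, and the values carry no test.

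Among the other members, Pvr and Vsir had r of 0.673 and 0.660 with Cd276 over the 12 libraries but 0.292 and 0.210 within the 8 tumors. Without TKO 4 and TKO 1 their r was 0.755 and 0.763, and their Spearman's rho over the 12 libraries was 0.748 and 0.741. For Ceacam1 r was -0.667 over all libraries and -0.730 within tumors, but -0.336 without TKO 4 and TKO 1, and Spearman's rho was -0.483. Lgals9 had r of -0.422 over all libraries, -0.420 within tumors and -0.210 without TKO 4 and TKO 1. Over the 12 libraries r was 0.129 for Cd274, 0.064 for Nectin2 and -0.039 for Cd47, and within the 8 tumors it was -0.208, -0.531 and 0.0217. Spearman's rho of Cd274 over the 12 libraries was -0.105. With so few libraries and with 3 groups among them these values describe the samples only.

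Promoter sequence was looked at because Cd276 and Tfdp1 had the closest pattern and because the tumors carry deletions of E2f7 and E2f8. The window of 300 bases, 250 before and 50 after the annotated start, was available for 7 of the 8 members, Pvr lacking one, and was searched on both strands for 3 motifs. For E2F these were the letters TTTCCCGC, TTTCGCGC, TTTGCCGC or TTTGGCGC, for the GC box CCGCCC, and for the interferon-gamma element TTCNNNGAA. Of 32851 promoter windows of that length in RefSeq GRCm38.p6, 2.26% held the E2F letters, 35.7% the GC box and 8.3% the interferon-gamma element. Cd276 held 4 GC boxes, Cd47, Nectin2 and Vsir 3 each, Cd274 held 1, and Lgals9 and Ceacam1 held 0. The E2F letters and the interferon-gamma element were found in 0 of the 7 member promoters, which says only that these letters are not in these windows. The Tfdp1 window held 1 match to the E2F letters, and the windows of Gm19276, Mboat7, Tmem106c and Sptb held 0 each. Also searched, the windows of Icosl and E2f8 held 0 each. The study describes atypical E2Fs such as E2f8 as downstream targets of RB, so a lack of these letters does not set a gene apart from that pathway. The Cd276 window was 78.3% G and C and that of Tfdp1 78%, where the median of all windows was 52.7%. The Tfdp1 window also held 3 GC boxes. The 250 bases before each start are shown from 5′ to 3′ in RefSeq GRCm38.p6, for Cd276 at chr9:58555034-58555283 on the minus strand with GC boxes in capitals, and for Tfdp1 at chr8:13338501-13338750 on the plus strand with the E2F match in capitals. No E2F match shares bases with a GC box in these stretches, and a match is a description of letters only.
Cd276: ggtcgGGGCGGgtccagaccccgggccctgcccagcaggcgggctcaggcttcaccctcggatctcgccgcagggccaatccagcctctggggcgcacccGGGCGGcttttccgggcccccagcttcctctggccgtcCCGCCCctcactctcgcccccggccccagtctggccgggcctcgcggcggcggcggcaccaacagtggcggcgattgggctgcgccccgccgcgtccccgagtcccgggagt
Tfdp1: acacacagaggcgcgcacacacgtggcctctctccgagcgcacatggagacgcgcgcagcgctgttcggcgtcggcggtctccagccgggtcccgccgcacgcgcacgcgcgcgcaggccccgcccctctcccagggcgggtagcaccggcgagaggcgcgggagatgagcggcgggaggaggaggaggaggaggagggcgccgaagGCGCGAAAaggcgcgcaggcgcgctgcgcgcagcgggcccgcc

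Receptors of the ligands had few counts, apart from Sirpa. Sirpa, the macrophage receptor of CD47, took 89.9% of the CPM of the receptor list and stood at 39.0, 21.3, 26.2 and 78.6 CPM in control 1 to 4, 81.1, 70.7, 67.7 and 39.4 CPM in DKO 1 to 4, and 96.8, 110.4, 66.7 and 74.0 CPM in TKO 1 to 4. Control 4 lay among the tumors and DKO 4 among the controls, so the groups of Sirpa overlapped, and its log2 difference between DKO and control was 0.65 with a 95% interval of -0.15 to 1.44 (adjusted p = 0.303 by edgeR's quasi-likelihood test, Benjamini-Hochberg). With single libraries left out that difference of Sirpa ran from 0.43 to 1.16, and over 21 settings its adjusted p ran from 0.0435 with voom, the only value under 0.05, to 0.570 without control 2. The receptors of the other members had few counts over all 12 libraries together. They were 274 for Havcr2 (TIM-3), 241 for Selplg (a receptor of VISTA), 91 for Cd226 (DNAM-1), 37 for Cd96, 14 for Tigit and 9 for Pdcd1 (PD-1), and Pvrig had no count row. Of 14 receptors 6 were tested, and edgeR called 0 of them in DKO against control (2.42% of all tested genes), with 0 at an unadjusted p under 0.05 and 0 by DESeq2.

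Of 10 other B7 and butyrophilin-like ligands 5 were tested in DKO against control, where edgeR called 0 (2.42% of all tested genes), 1 was higher at an unadjusted p under 0.05 (12.9% of all) and DESeq2 called 1 higher (5.7% of all). That gene, Icosl, the ligand of the T cell costimulator ICOS, is named after its values were seen. Icosl stood at 0.369 to 1.24 CPM in control, 1.36 to 3.24 CPM in DKO and 0.537 to 4.69 CPM in TKO, with 3 to 17 counts in each control library. Its log2 difference between DKO and control was 1.70 (95% interval 0.41 to 2.99; adjusted p = 0.114 by edgeR's quasi-likelihood test, Benjamini-Hochberg). The relatives with the most counts were Ildr2, at 86.5, 66.7 and 59.7 CPM in control, DKO and TKO, and Vsig4, the complement receptor of Kupffer cells, at 52.2, 27.0 and 35.5 CPM.

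The next lists hold 2 to 6 tested genes each, and edgeR called 2.42% of all tested genes in DKO against control, so 0 calls in a list tell little. Nectin-family genes related to Pvr and Nectin2 had 0 of 5 tested called by edgeR, with 1 lower at an unadjusted p under 0.05 (1545 of all 13882 tested genes) and 0 by DESeq2, and Nectin3 and Nectin1 led the list with 82.4 and 59.7 CPM in control, 86.2 and 75.6 CPM in DKO and 87.3 and 75.3 CPM in TKO. Other galectin genes, listed with Lgals3bp, which encodes a protein that binds galectins, had 0 of 6 tested called, 0 at an unadjusted p under 0.05 and 0 by DESeq2, led by Lgals8 (105, 85.4 and 79.5 CPM) and Lgals3bp (69.1, 96.3 and 86.1 CPM). Paralogs of Ceacam1 had 0 of 2 tested called, 0 at an unadjusted p under 0.05 and 0 by DESeq2, Ceacam2 taking 90% of the list and Ceacam10 averaging 4.11, 3.42 and 3.51 CPM. Ligands of NKG2D, an activating receptor of natural killer cells, had 0 of 2 tested called, 0 at an unadjusted p under 0.05 and 0 by DESeq2. Raet1d averaged 9.47, 4.71 and 10.99 CPM and Raet1e 8.75, 4.18 and 11.9 CPM in control, DKO and TKO, and Ulbp1 had a count of 0 in every library.

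Among other inhibitory ligands and enzymes Thbs1 rose in DKO tumors, the only call among 14 tested genes of that list in edgeR, with 4 higher and 1 lower at an unadjusted p under 0.05 and 3 higher by DESeq2. Of all 13882 tested genes edgeR called 2.42%, 1784 were higher and 1545 lower at that unadjusted level, and DESeq2 called 5.7% of its tested genes higher. Thbs1 encodes thrombospondin-1, a secreted ligand of CD47. Its level was 4.97, 2.70, 4.34 and 2.93 CPM in control 1 to 4, 8.20, 7.75, 11.7 and 11.7 CPM in DKO 1 to 4, and 4.82, 6.40, 7.36 and 7.24 CPM in TKO 1 to 4. All DKO libraries of Thbs1 lay above all libraries of control and TKO. The log2 difference of Thbs1 between DKO and control was 1.39 (95% interval 0.85 to 1.92), with an adjusted p of 0.0344 by edgeR's quasi-likelihood test with Benjamini-Hochberg adjustment. Over 21 settings its adjusted p ran from 5.75e-05 with DESeq2 to 0.118 without control 2, and 14 settings were under 0.05. The call of Thbs1 was also lost without control 3 (adjusted p = 0.109), control 4 (0.0614), DKO 1 (0.0791), DKO 2 (0.0636) or DKO 4 (0.0594) and with total counts as the scaling (0.0627). Fgl1, a hepatocyte ligand of LAG-3 and among the genes of this list with the most counts, stood at 1651, 483, 183 and 120 CPM in control 1 to 4, 675, 117, 189 and 642 CPM in DKO 1 to 4, and 90.1, 348, 274 and 72.8 CPM in TKO 1 to 4, and its groups overlapped.

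Of the genes that carry interferon-gamma signalling to Cd274 or hold PD-L1 at the membrane, edgeR called 1 of 17 tested in DKO against control. Among all tested genes it called 2.42%. At an unadjusted p under 0.05, 2 of the 17 were higher, near the 12.9% of all tested genes. DESeq2 called 1 higher, where it called 5.7% of its tested genes higher. Both tools called Ifngr1, a chain of the interferon-gamma receptor. It stood at 34.3, 24.2, 28.4 and 33.1 CPM in control 1 to 4, 102, 109, 45.7 and 75.5 CPM in DKO 1 to 4, and 61.7, 90.6, 28.8 and 55.8 CPM in TKO 1 to 4. DKO lay above control in every library of Ifngr1, and TKO 3 lay within the control range. Ifngr1 rose by a log2 difference of 1.47 between control and DKO (95% interval 0.75 to 2.18; adjusted p = 0.0469 by edgeR's quasi-likelihood test, Benjamini-Hochberg). Its adjusted p ran from 0.00146 to 0.144 over 21 settings, 11 of them under 0.05. The call of Ifngr1 was lost without control 1 (adjusted p = 0.0591), control 2 (0.144), control 3 (0.132), control 4 (0.0725), DKO 1 (0.106), DKO 2 (0.114), DKO 4 (0.0713) or TKO 1 (0.0560), with total counts as the scaling (0.0531) and with the covariate from sex-linked genes (0.119). The ligand itself, Ifng, had 6 counts in all libraries together. Cmtm6, which keeps PD-L1 at the cell surface, and Jak1 led the list, Cmtm6 at 116, 122 and 112 CPM and Jak1 at 104, 119 and 113 CPM in control, DKO and TKO.

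For the genes of MHC class I presentation, through which tumor antigens reach T cells, edgeR called 0 of 14 tested in DKO against control. Among all tested genes it called 2.42%. At an unadjusted p under 0.05, 3 of the 14 were lower, as were 1545 of all 13882 tested genes. DESeq2 called 1 lower, as it did 690 of its 14527 tested genes. B2m averaged 2329, 1534 and 1615 CPM in control, DKO and TKO and H2-D1 1149.9, 1186 and 1056 CPM. The median log2 difference of these 14 genes between DKO and control was -0.16, against 0.02 for all tested genes. In TKO against DKO edgeR and DESeq2 each called 0 genes in every list from the receptors to MHC class I. At an unadjusted p under 0.05 edgeR counted 5 of the other inhibitory ligands and enzymes there (4 lower), 1 NKG2D ligand, 1 gene of the interferon-gamma list and 0 in the other lists, against 9% of all tested genes (717 higher and 533 lower).

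Cell type markers were read beside the members, since VISTA, galectin-9 and SIRPα are carried by immune cells. The 13 macrophage and Kupffer cell markers, led in counts by Clec4f, summed to 779, 317, 374 and 724 CPM in control 1 to 4, 349, 284, 649 and 181 CPM in DKO 1 to 4, and 273, 507, 847 and 280.5 CPM in TKO 1 to 4. DKO 4 had the lowest sum and also the highest Vsir, while TKO 3 had the highest sum and the highest Lgals9. The 15 T and NK cell markers, led by Cd4, summed to 6.37 to 17.0 CPM in control, 4.89 to 15.7 CPM in DKO and 10.4 to 17.4 CPM in TKO. EdgeR called 0 of the 13 tested macrophage markers and 0 of the 7 tested T and NK cell markers in DKO against control, with 1 lower, and 1 higher and 1 lower, at an unadjusted p under 0.05 and 0 of each by DESeq2. Among all 13882 tested genes edgeR called 2.42%, and 12.9% were higher and 1545 genes lower at the unadjusted level. The median log2 difference between DKO and control was -0.93 for the macrophage markers, with 2 of 13 above 0, and -0.74 for the T and NK cell markers, with 1 of 7 above 0, against 0.02 for all tested genes. The part of these cells in the levels of the members was not tested.

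The 10 proliferation markers, led by Cdk1, summed to 17.9, 10.7, 11.8 and 24.2 CPM in control 1 to 4, 67.9, 130.0, 49.5 and 30.3 CPM in DKO 1 to 4, and 78.1, 34.9, 16.3 and 55.6 CPM in TKO 1 to 4. Among TKO tumors the order of these sums was that of Cd276 except for TKO 1 and TKO 4, and TKO 3 was lowest in both, while among DKO tumors DKO 4 had the lowest sum and the highest Cd276. EdgeR called 2 of the 10 in DKO against control, Mki67 (log2 difference 2.89, adjusted p = 0.0425) and Plk1 (2.21, adjusted p = 0.0469), by its quasi-likelihood test with Benjamini-Hochberg adjustment, with 10 at an unadjusted p under 0.05 and 9 by DESeq2, all higher. Of all tested genes edgeR called 2.42% in either direction, 12.9% were higher at the unadjusted level and DESeq2 called 5.7% higher. The adjusted p of Mki67 ran from 7.16e-05 to 0.134 over the settings and that of Plk1 from 0.00114 to 0.140. The call of Mki67 was lost without control 1, 2, 3 or 4 (adjusted p = 0.0551, 0.134, 0.128 and 0.0657), DKO 1, 2 or 4 (0.0941, 0.0943 and 0.0517) or TKO 1 (0.0528), with total counts as the scaling (0.0528) and with the covariate from sex-linked genes (0.0851). That of Plk1 was lost without control 1, 2, 3 or 4 (0.0693, 0.140, 0.132 and 0.0593), DKO 1, 2 or 4 (0.0969, 0.114 and 0.0620) or TKO 1 or 2 (0.0540 and 0.0536), with total counts (0.0627) and with the covariate (0.0978). Their part in the level of Cd276 was not tested.

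The 10 hepatocyte markers, led by Alb, summed to 94548, 160691, 155332 and 123114 CPM in control 1 to 4, 324992, 238677, 138691 and 135456 CPM in DKO 1 to 4, and 194085, 253239, 107646 and 62704 CPM in TKO 1 to 4. The lowest sum and the highest Cd276 of all libraries were in TKO 4. TKO 1, with the next highest Cd276, had a sum above every control, of which Alb alone was 152062 CPM. That sum does not stand for the other markers, since some of them lay above and some below every control in TKO 1. EdgeR called 0 of the 10 in DKO against control, where it called 2.42% of all tested genes. At an unadjusted p under 0.05, 4 of the 10 were lower, as were 1545 of the 13882 tested genes. DESeq2 called 3 lower, as it did 690 of its 14527 tested genes. The median log2 difference of the 10 markers was -0.57, so the DKO sums, led by Alb, do not stand for the other markers. The 9 cholangiocyte and progenitor markers, led by Spp1, summed to 45.0 to 64.4 CPM in control, 84.0 to 142 CPM in DKO and 55.1 to 76.8 CPM in TKO. EdgeR called 1 of 7 tested, Prom1 (log2 difference 3.85, adjusted p = 0.0292 in edgeR's quasi-likelihood test with Benjamini-Hochberg adjustment; 2.75e-09 to 0.111 over the settings), with 1 higher at an unadjusted p under 0.05 and 1 by DESeq2, where the shares of all tested genes were 2.42%, 12.9% and 5.7%. The call of Prom1 was lost without control 2, 3 or 4 (0.111, 0.109 and 0.0614) or DKO 1, 2 or 4 (0.0775, 0.0636 and 0.0517) and with the covariate from sex-linked genes (0.0746). Prom1 alone made up 50.4 of the 84.0 CPM in DKO 4. The log2 difference between DKO and control was above 0 for all 7 tested markers of this list, with a median of 1.06. The part of these markers in the levels of the members was not tested.

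The remaining marker lists showed no call by edgeR in DKO against control, where 2.42% of all tested genes were called. The 10 endothelial markers, led by Eng, summed to 199 to 309 CPM in control, 226 to 371 CPM in DKO and 254 to 492 CPM in TKO, with 2 of 10 higher at an unadjusted p under 0.05 (12.9% of all tested genes) and 2 by DESeq2 (5.7% of all). The 11 stellate cell and fibroblast markers, led by Dcn, summed to 304 to 499, 202 to 676 and 257 to 479 CPM in control, DKO and TKO, with 0 at an unadjusted p under 0.05 and 0 by DESeq2. B cell markers, led by Ighm, summed to 21.0 to 96.2, 8.79 to 229.5 and 19.5 to 69.6 CPM, and neutrophil markers, led by Mmp9, to 4.82 to 18.5, 4.35 to 15.9 and 3.36 to 18.3 CPM, both with 0 at an unadjusted p under 0.05 and 0 by DESeq2. Dendritic cell markers, led by Zbtb46, summed to 7.99 to 10.3, 10.1 to 15.5 and 12.4 to 15.7 CPM, with 1 of 5 tested higher at an unadjusted p under 0.05 and 1 by DESeq2, beside the same shares of all genes. In TKO against DKO edgeR called 0 genes of every marker list. At an unadjusted p under 0.05 it counted 2 T and NK cell markers, 1 hepatocyte, 1 endothelial and 1 cholangiocyte or progenitor marker and 0 in the other marker lists, and DESeq2 called 1 cholangiocyte or progenitor marker and 0 of the others, against 9% of all tested genes at that unadjusted level and 0.398% by DESeq2.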

How the data were processed

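SOLiD reads were mapped by the authors to mm9 (BWA), featureCounts gave the reads of each gene, and raw counts per Entrez gene are the values deposited. Versions, strand setting and the handling of reads with several places are not given in the sources used here. Symbols from RefSeq GRCm38.p6 covered 24191 genes and 99.4% of counts, exon lengths and positions came from GENCODE vM1 (mm9), and promoters from RefSeq GRCm38.p6. Counts were normalized with TMM and filtered with filterByExpr, which left 13882 of 26301 genes, in edgeR 4.0.16 under R 4.3.3. One model held all 12 libraries, and its quasi-likelihood test was adjusted with Benjamini-Hochberg over all tested genes at 0.05. Log2 CPM used a prior count of 2. The test was checked on simulated counts with log2 changes of 2 or 3 between DKO and control. These are larger than the differences of the members, so the check does not bear on changes of their size. Total counts per library ran from 9165812 to 16424973, and intervals are 95%.

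Alternatives were DESeq2 1.42.0, voom with quality weights in limma 3.58.1, DESeq2 size factors or total counts as scaling, a filter of at least 10 counts in every library or none, a replicate block, only the 8 libraries compared, a covariate from sex-linked genes, leaving out each library, lengths of the longest transcript, and Spearman's rho. The members and gene lists were chosen with earlier results of these data known. The lists were other B7 and butyrophilin-like ligands, receptors, other inhibitory ligands and enzymes, the nectin family, galectins with a protein that binds them, CEACAM paralogs, NKG2D ligands, interferon-gamma signalling with PD-L1 regulators, MHC class I presentation, and markers of hepatocytes, cholangiocytes and progenitors, endothelium, macrophages, stellate cells, T and NK cells, B cells, neutrophils, dendritic cells and proliferation; 7 of their genes had no count row. Genes named are the members, the deleted genes, Ceacam2, the receptors, the called genes (at most 3 up and 3 down) and up to 2 with most counts of each pathway list, the one with most counts of each marker list, and the 5 with the highest r with Cd276. Correlations carry no p.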

Additional observations from a re-analysis of the deposited data

Results flagged for a closer look

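In each group of 4 libraries the highest and lowest level of every member, of the deleted genes and of Tfdp1 were compared with the other libraries of that group in log2 CPM, 36 groups in all. One library stood apart: Rb1 in DKO 1, at 11.27 CPM, where the nearest of the other DKO libraries was at 8.38 CPM. Chance alone sets a library apart in about 1 in 20 groups. No member had such a library in log2 CPM. On CPM without the log, Cd47 in TKO 4 (168 CPM, the nearest at 123 CPM) also passed the limit.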

How the results depend on the processing

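For DKO against control edgeR called 336 genes. The count was 1518 with DESeq2, 59 with total counts as the only scaling, 759 with the 8 libraries alone, 1804 with voom and 6 with the covariate from sex-linked genes. Leaving out 1 library gave 0 to 651: 166, 0, 0 and 5 without control 1 to 4, 5, 7 and 7 without DKO 1, 2 and 4, 96 without TKO 1 and 651 without TKO 3. For TKO against control, where 12 were called, it was 507 with DESeq2, 22 with no filter, 97 with voom, 5 with the covariate, and 0 to 231 with a library left out: 0, 0, 0 and 1 without control 1 to 4, 2, 0 and 1 without DKO 1, 2 and 4, 1 and 0 without TKO 1 and 2, and 231 without TKO 3. For TKO against DKO, where 0 were called (1250 at an unadjusted p under 0.05), it was 56 with DESeq2 and 0 to 0 with a library left out. Of the 8 members in DKO against control, 2 were called with DESeq2 (Cd276 and Pvr), 1 with the 8 libraries alone (Cd276) and 1 with voom (Pvr), and 0 under each other alternative. The 7 others in TKO against DKO had 0 calls under every alternative. The 8 libraries alone hold fewer samples and a separate estimate of spread, and for the others the cause was not tested. In every library Xist had 1 to 6 counts and Y-linked genes 1093 to 2293 counts, as in males. The covariate from sex-linked genes therefore did not separate the sexes.

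Replicate numbers repeat between groups of different genotype, and correlations between libraries of different groups overlapped for the same number (-0.174 to 0.370, median 0.0224, n = 12) and for different numbers (-0.351 to 0.322, median -0.0612, n = 36). With the replicate block 509 genes were called in DKO against control and 1 in TKO against control.

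The log2 values of named genes kept their direction and their side of the threshold, or without a test stayed within the spread between libraries, in 1160 cases, were no longer called in 45, became called in 17 and, where a test was made, turned in sign in 26, none of which were called. With a library left out, DKO against control ran from -0.20 to 0.58 for Cd274, -0.00715 to 0.14 for Cd47 and -0.0250 to 0.26 for Rb1. TKO against DKO ran from -0.32 to 0.10 for Cd274, -0.25 to 0.23 for Pvr, -0.16 to 0.0363 for Nectin2, -0.00901 to 0.31 for Lgals9, -0.34 to 0.14 for Ceacam1, -0.17 to 0.11 for Vsir and -0.19 to 0.57 for Icosl. The libraries whose absence turned the sign in DKO against control were control 2, control 3 and DKO 3 for Cd274 (-0.20, -0.0185 and -0.14), control 2 and DKO 2 for Cd47 (-0.00122 and -0.00715) and DKO 1 for Rb1. In TKO against DKO they were DKO 3 for Cd274, DKO 4 and TKO 3 for Pvr (0.23 and 0.00577), DKO 1, DKO 3 and TKO 4 for Nectin2 (0.00238, 0.0363 and 0.0226), TKO 3 for Lgals9, DKO 1 and TKO 4 for Ceacam1 (0.14 and 0.0981), DKO 3, DKO 4, TKO 1 and TKO 3 for Vsir (0.0573, 0.11, 0.0176 and 0.0187) and TKO 2 for Icosl. The sign of TKO against DKO also turned with total counts for Nectin2 (0.0487), Ceacam1 (0.0231) and Vsir (0.0308), with voom for Pvr (0.0904) and Vsir (0.0598), and with the replicate block for Vsir (0.000206). In TKO against control, described without a test, the values ran from -0.35 to 0.43 for Cd274, -0.22 to 0.09 for Cd47 and -0.21 to 0.15 for Lgals9. Total counts moved the median of all genes to 0.11 from 0.01 in TKO against DKO and to 0.17 from 0.02 in TKO against control. The values of Cd276, which follow from the choice of the set, ran from 1.58 to 1.98 for TKO against control and 0.70 to 1.08 for TKO against DKO.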
